A study of Sus scrofa with 10 samples.

Results

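The smooth muscle contractile genes are 8 genes whose proteins build or drive the contractile apparatus of smooth muscle, namely MYH11, ACTG2, DES, ACTA2, TAGLN, CNN1, MYLK and LMOD1. They were chosen by name, as the protein-coding loci carrying these symbols, and 8 of 8 were found, each at 1 locus, among 19972 protein-coding loci. All 8 were expressed at a mean FPKM (fragments per kilobase of transcript, scaled to the size of the library) above the minimum of 0.1 and were among the 15170 protein-coding loci tested. The ovaries came from 10 gilts of 234 days of age and the same genetic background, with 1 library per pig. Every gilt, rpFSH-treated or not, had first received altrenogest, a progestin that holds back oestrus, in its feed from day 210 of life (20 mg daily over 18 days, then none over 2 days). The rpFSH treatment group (5 pigs) was then injected with 1000 IU of recombinant pig follicle-stimulating hormone per pig, and the control group (5 pigs) with normal saline. Surface follicles were removed before the tissue was frozen, so the libraries describe what was left of the ovary rather than the large follicles.

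In smooth muscle, thick filaments of the MYH11 myosin heavy chain pull on thin filaments of ACTA2 and ACTG2 actin. Contraction starts when calcium and calmodulin switch on the kinase MYLK, which phosphorylates the myosin light chain. CNN1 and TAGLN bind the actin filaments, LMOD1 nucleates actin filaments, and DES forms the intermediate filaments that tie the apparatus together. In the ovary such cells line the vessels, lie in the hilum and the ligaments, and form part of the outer theca around follicles.

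The same pigs lay at the extremes in all 8 genes. Control pig 5 had the highest FPKM in 8 of 8 genes and control pig 2 the lowest in 8 of 8, while 17.4% of the tested loci were highest in control pig 5 and 17.5% were lowest in control pig 2. Control pig 4 was second lowest in 7 of the 8. The rpFSH pigs lay between these extremes, and none of the 8 genes passed the test between the groups when all 10 pigs were compared. With control pig 5 left out, all 8 genes were higher in the rpFSH treatment group by their fold change, and 4 of them, DES, ACTG2, CNN1 and TAGLN, passed the thresholds of the study (0.89% of the tested loci did). None had an adjusted p under 0.05 by edgeR. When libraries were scaled by their totals alone, 3 of the 8 genes passed the thresholds, and the share over all tested loci is not given here. When control pig 2 was left out as well, 1 of the 8 passed (1.85% of the tested loci did). Since control pig 5 was the highest in all 8 genes, leaving it out raised all 8 fold changes by construction.

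**Figure D1:**
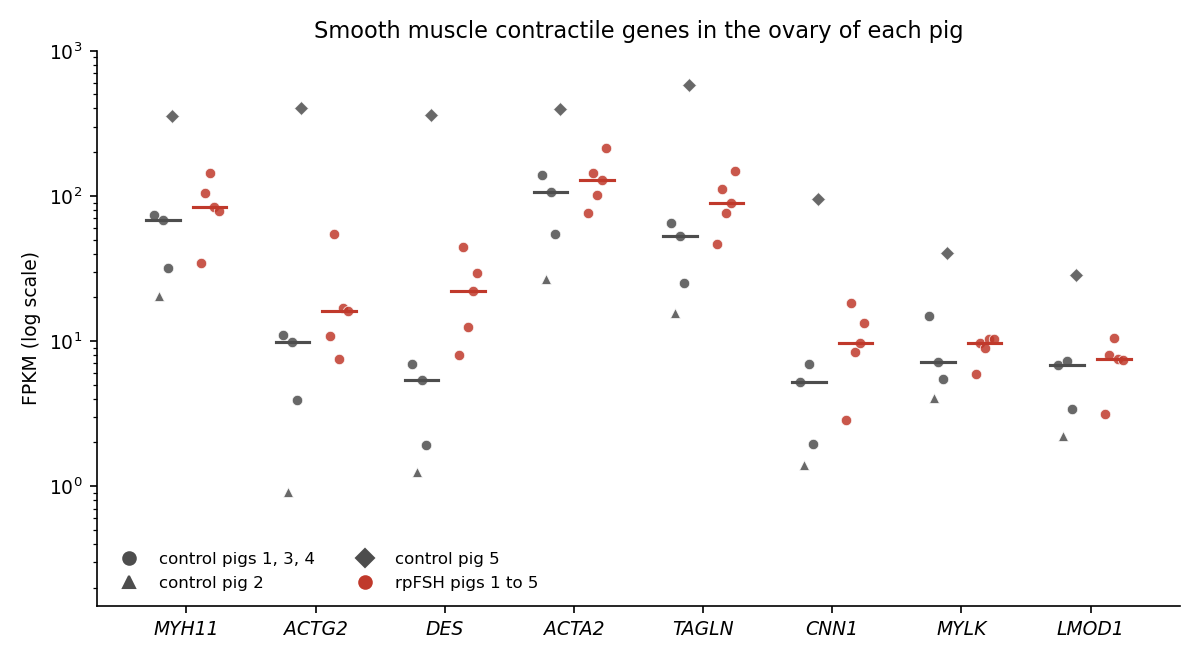
FPKM of the 8 smooth muscle contractile genes in each pig, on a log axis, with control pigs in grey, rpFSH pigs in red, and a line at the median of the 5 pigs of each group. Control pig 5 (diamonds) lies above all other pigs and control pig 2 (triangles) below them in each gene, and the red line is above the grey line in all 8.

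The filament proteins come first. MYH11, the smooth muscle myosin heavy chain (locus MSTRG.20177, chr3:7002706-7143100 of Sscrofa11.1, plus strand), had an FPKM of 73.7, 20.3, 68.6, 31.8 and 356 in control pigs 1 to 5 and of 34.6, 105, 145, 84.5 and 79.1 in rpFSH pigs 1 to 5. The rpFSH values fell within the control range, and 4 of 5 lay above the highest of the other 4 controls. ACTA2, the actin of vascular smooth muscle (MSTRG.11959, chr14:100865015-100886984, minus strand), had an FPKM of 140, 26.8, 107, 54.8 and 398 in the control pigs and of 76.3, 143, 101, 128 and 215 in the rpFSH pigs. Its value in control pig 5 was 1.85 times that of the next pig, and it was the one gene of the 8 below 2 times. ACTG2, the actin of visceral smooth muscle (MSTRG.21572, chr3:69094860-69121547, minus strand), had an FPKM of 11.05, 0.913, 9.89, 3.91 and 406 in the control pigs and of 10.9, 54.4, 7.54, 16.8 and 16.2 in the rpFSH pigs. It had the widest span of the 8 genes, 444-fold from control pig 2 to control pig 5, and among the rpFSH pigs rpFSH pig 2 stood above the rest. These actins and the actins ACTA1 and ACTC1 have nearly the same protein sequence, and how the counting treated reads that fit several of them is not given in the sources used here, so their separate levels are uncertain.

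DES encodes desmin, the intermediate filament protein of muscle (MSTRG.14028, chr15:121427532-121444938, plus strand). Its FPKM was 6.96, 1.26, 5.36, 1.93 and 360 in the control pigs and 7.98, 44.3, 12.5, 22.1 and 29.5 in the rpFSH pigs. Every rpFSH pig was above control pigs 1 to 4 and below control pig 5, an arrangement that none of the other 7 genes showed. LMOD1, or leiomodin, (MSTRG.3943, chr10:24164792-24193875, minus strand) had an FPKM of 6.86, 2.23, 7.28, 3.38 and 28.4 in the control pigs and of 3.16, 7.97, 10.5, 7.47 and 7.42 in the rpFSH pigs. Of the rpFSH pigs, 4 of 5 lay above control pigs 1 to 4, the nearest by a narrow margin, and rpFSH pig 1 was second lowest of the 10.

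Among the actin-binding and regulatory proteins, TAGLN, or transgelin, (MSTRG.34492, chr9:44560785-44567385, plus strand) had an FPKM of 64.5, 15.6, 53.2, 25.2 and 579 in the control pigs and of 46.6, 112, 76.8, 89.5 and 147 in the rpFSH pigs. Of the rpFSH pigs, 4 of 5 were above control pigs 1 to 4. CNN1, or calponin, (MSTRG.18534, chr2:70183235-70190758, plus strand) had an FPKM of 5.24, 1.41, 6.98, 1.96 and 95.5 in the control pigs and of 2.85, 18.2, 8.45, 9.71 and 13.3 in the rpFSH pigs. Again 4 of 5 rpFSH pigs exceeded the 4 lower controls. MYLK, the light chain kinase (MSTRG.9422, chr13:136508868-136809708, plus strand), had an FPKM of 14.8, 4.01, 7.14, 5.50 and 40.6 in the control pigs and of 5.95, 9.69, 8.96, 10.3 and 10.3 in the rpFSH pigs. It was the flattest of the 8 genes in the rpFSH treatment group, with a 1.74-fold span, and 2 controls were above all rpFSH pigs.

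By level per length, ACTA2, MYH11 and TAGLN were the most abundant over the 10 pigs, with median FPKM of 118, 76.4 and 70.7, and ACTG2, DES, MYLK, CNN1 and LMOD1 followed with 11.0, 10.2, 9.33, 7.72 and 7.35. The spread between pigs was larger than the distance between neighbours in this order. In control pig 5 the order was another one, with TAGLN first, then ACTG2, ACTA2, DES and MYH11, all between 356 and 579. Over the median of the other 9 pigs, control pig 5 was 45.1-fold higher in DES, 37.2-fold in ACTG2, 13.7-fold in CNN1, 8.97-fold in TAGLN, 4.83-fold in MYH11, 4.52-fold in MYLK, 3.90-fold in LMOD1 and 3.73-fold in ACTA2. Ranked by its difference in log2(FPKM + 1) from that median, DES was at rank 1 and ACTG2 at rank 3 of the 15170 tested loci, and LMOD1, the lowest of the 8 genes, at rank 235. Control pig 5 was over 2 times the next pig in 7 of the 8 genes, against 2.93% of the tested loci. The 8 genes together took 1.33% of all counts in control pig 5, between 0.0530 and 0.226% in the other controls and between 0.121 and 0.311% in the rpFSH pigs. In such bulk tissue, a different number of smooth muscle cells and a different amount of RNA of these genes per cell cannot be told apart.

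The comparison of the groups asks whether rpFSH treatment changed these genes. In the control group the standard deviation exceeded the mean in all 8 genes (TAGLN 147 ± 242 FPKM, DES 75.1 ± 159 FPKM, SD, n = 5), whereas in the rpFSH treatment group it was below the mean (TAGLN 94.5 ± 37.9 FPKM, DES 23.3 ± 14.4 FPKM, SD, n = 5). The edgeR log2 fold changes of rpFSH over control were negative in 8 of 8 genes, from -1.87 ± 1.39 (SE) for ACTG2 and -1.54 ± 1.40 for DES to -0.18 ± 0.70 for MYH11 and -0.03 ± 0.60 for ACTA2. The other 4 lay between -0.94 (CNN1) and -0.29 (LMOD1). None of the 8 had an adjusted p under 0.05 by edgeR's quasi-likelihood test, where the background was 0%, and none had an unadjusted P under 0.05, which 4.73% of the tested loci had. Adjusted p was 1.00 for each gene. DESeq2 gave an adjusted p under 0.05 to 0.567% of the loci and to none of these genes, and it gave no P to ACTG2, DES, TAGLN and CNN1. The study's thresholds are an unadjusted P under 0.05 with a log2 fold change above 1 or below -1, taken there from Ballgown and applied here to the edgeR P and the log2 ratio of mean FPKM. By this rule 0 of the 8 were upregulated and 0 downregulated, against 0.475% and 2.64% of the tested loci. The median log2 fold change of the 8 genes was -0.54 and that of all tested loci -0.01.

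All 8 fold changes turned positive when control pig 5 was left out, whereas leaving out any other single pig turned at most those of ACTA2 and MYH11, to no more than 0.10. The median FPKM of the rpFSH treatment group was above that of the control group in 8 of 8 genes, 4.12 times for DES, 1.85 times for CNN1, 1.68 times for TAGLN and 1.09 times for LMOD1. On log2(FPKM + 1), which weighs 1 extreme pig less, the mean difference was positive in all genes but MYLK, with 1.00 for DES and -0.18 for MYLK. Two-sided exact permutation tests over all assignments of the 10 pigs to the groups gave p between 0.516 (DES) and 0.897 (LMOD1).

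Without control pig 5, the 4 remaining controls had a DES FPKM of 3.88 ± 2.73 (SD, n = 4), and the edgeR log2 fold change of DES was 2.65 ± 0.66 (SE), with an unadjusted P of 0.00278 and an adjusted p of 0.999. ACTG2 followed with 1.79 ± 0.79 and an unadjusted P of 0.0478, CNN1 with 1.49 ± 0.61 and an unadjusted P of 0.0362, and TAGLN with 1.31 ± 0.47 and an unadjusted P of 0.0195, all by edgeR and with an adjusted p of 0.999. These 4 genes met the study's rule as upregulated, which 0.89% of the tested loci did in the same comparison. MYH11, ACTA2, LMOD1 and MYLK, with log2 fold changes of 0.94, 0.75, 0.62 and 0.26, did not meet it. Control pig 5 was the highest pig in all 8 genes but in 17.4% of the tested loci. Leaving it out therefore raised every fold change of the 8, so shares over all tested loci are no like background here. The 8 genes also varied together, so these are not 4 independent calls. Adjusted p under 0.05 by edgeR was again reached by 0% of the loci, and by DESeq2 by 0.25% of them, among which DES was the one gene of the 8 (adjusted p = 0.00820). The 5 rpFSH pigs were all above the 4 controls in 0.488% of the tested loci and, of the 8 genes, in DES. Two-sided exact permutation over 126 assignments gave p = 0.0159 for DES, 0.0397 for TAGLN and 0.0635 for ACTG2 (4 controls against 5 rpFSH pigs). The same permutation gave 0.0873 for CNN1, 0.135 for MYH11, 0.167 for ACTA2, 0.198 for LMOD1 and 0.413 for MYLK, without adjustment over the 8 genes. With control pig 2 also left out, the log2 fold change was 2.37 for DES, 1.44 for ACTG2, 1.23 for CNN1 and 1.06 for TAGLN, with an unadjusted edgeR P of 0.00511, 0.0630, 0.0711 and 0.0309. The number of genes that met the rule then fell from 4 to 1, which was DES, against 1.85% of the tested loci.

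**Figure D2:**
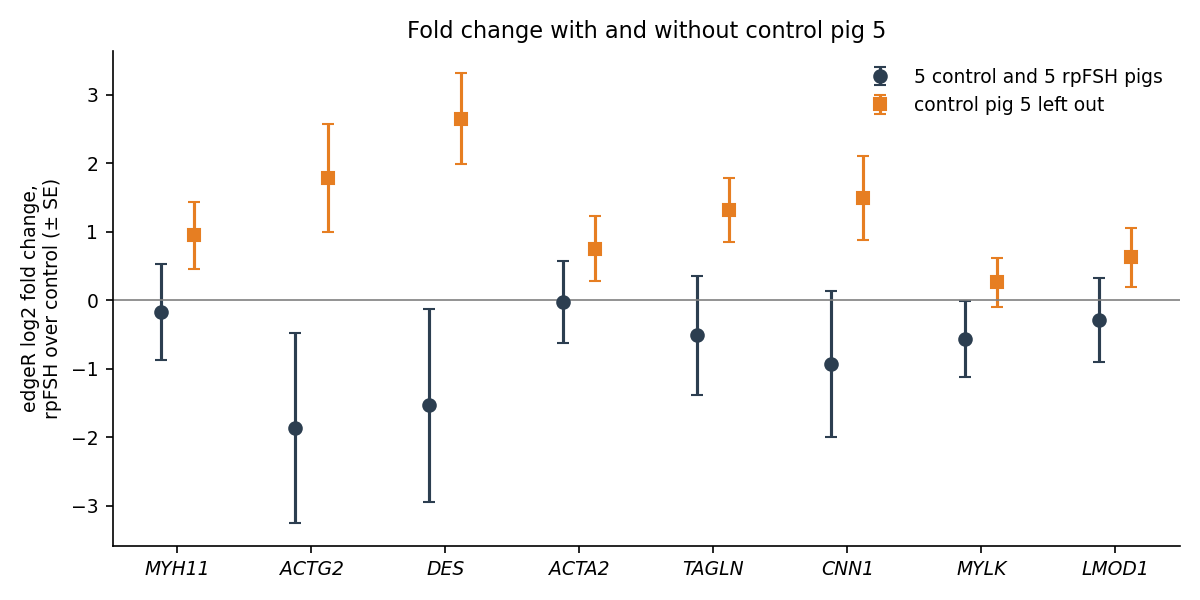
edgeR log2 fold change of rpFSH over control for each gene (points, with bars of 1 SE), from all 10 pigs (circles) and without control pig 5 (squares). All 8 circles lie below 0 and all 8 squares above it, and the squares of DES, ACTG2, CNN1 and TAGLN are the highest.

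Ratios within a pig do not depend on the scaling of its library and were taken against ACTA2. The ACTG2 to ACTA2 ratio of FPKM was 1.02 in control pig 5, between 0.0341 and 0.0926 in the other controls and between 0.0743 and 0.380 in the rpFSH pigs. The visceral actin thus reached the level of the vascular actin in 1 pig of 10. The difference between the groups did not pass the test (log2 difference 0.23, exact permutation p = 0.802, n = 5 and 5). DES to ACTA2 was 0.906 in control pig 5 against 0.0352 to 0.309 in the other 9 pigs, TAGLN to ACTA2 was 1.46 against 0.459 to 0.784, and CNN1 to ACTA2 was 0.240 against 0.0357 to 0.127. MYH11, MYLK and LMOD1 showed another picture, since their ratios to ACTA2 in control pig 5 (0.896, 0.102 and 0.0715) were inside the range of the other 9 pigs. The rise in control pig 5 was therefore unequal among the genes, with DES, ACTG2, CNN1 and TAGLN ahead of ACTA2, and MYH11, MYLK and LMOD1 close to it.

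The ratios also separated the groups once control pig 5 was left out. DES to ACTA2 was between 0.105 and 0.309 in the rpFSH pigs and between 0.0352 and 0.0502 in control pigs 1 to 4, a log2 difference of 1.80. TAGLN to ACTA2 was between 0.611 and 0.784 in the rpFSH pigs and between 0.459 and 0.581 in these controls, a log2 difference of 0.50. Neither ratio overlapped between the groups. In this direction the same held for 0.0264% of the tested loci when divided by ACTA2 (4 of 15169, these 2 genes included). A locus that does not vary with ACTA2 takes on the spread of ACTA2 in that division, so this share is no like background for genes that vary with it. The two-sided exact permutation p was 0.00794 for each ratio, the smallest that 4 against 5 pigs can give, among 7 ratios tested. Control pig 5 had the highest of both ratios, so the separation depended on leaving it out. With control pig 5 included the exact permutation p was 0.341 for DES and 0.651 for TAGLN (n = 5 and 5). The ACTG2, CNN1, MYH11, MYLK and LMOD1 ratios overlapped between the groups in both comparisons.

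**Figure D3:**
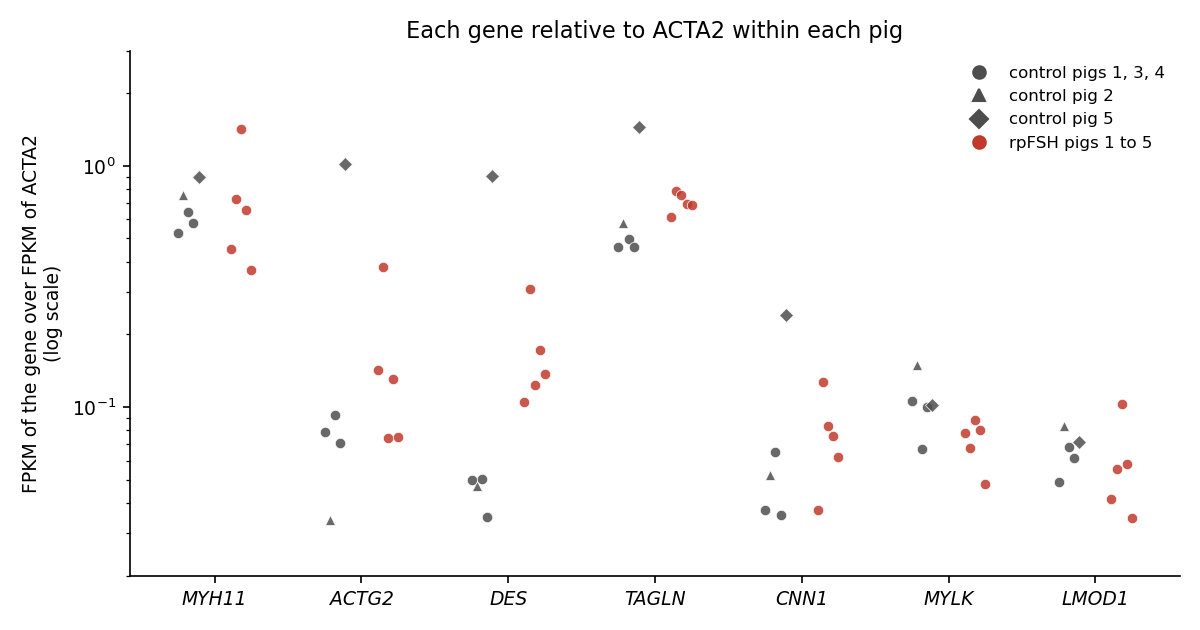
FPKM of 7 genes divided by the FPKM of ACTA2 in the same pig, on a log axis, with control pigs in grey and rpFSH pigs in red. Control pig 5 (diamonds) stands above the other pigs for ACTG2, DES, TAGLN and CNN1, and the red points of DES and TAGLN lie above the remaining grey points.

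The genes varied together across pigs. Over the 28 pairs of genes, Pearson's r of log2(FPKM + 1) across the 10 pigs was between 0.860 (MYH11 with ACTG2) and 0.989 (MYH11 with LMOD1), and Spearman's rho was between 0.673 and 0.976. The permutation p reached at most 0.00271 for r and 0.0390 for rho, without adjustment over the pairs. Without control pig 5, r was between 0.671 and 0.987, and without the 2 pigs farthest from the median, control pigs 2 and 5 in every pair, between 0.407 (ACTG2 with LMOD1) and 0.978 (MYH11 with LMOD1). Without these 2 pigs r also fell to 0.513 for DES with MYLK and to 0.576 for CNN1 with MYLK, while it was 0.875 for ACTG2 with DES, so that part of several relations rested on them. Within the 5 rpFSH pigs, r was between 0.117 for ACTG2 with LMOD1 and 0.987 for MYH11 with LMOD1. Both values of a pair come from the same library, and the pigs of both groups are pooled in the values over 10 pigs.

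The loci whose pattern over the 10 pigs was most like the mean of the 8 genes were ranked among the 11307 protein-coding loci whose FPKM averaged 1 or more. TPM2, a tropomyosin of the thin filament, was first with r = 0.988. VCL (vinculin, at dense plaques), FLNA (the actin crosslinker filamin A, at a locus shared with TAZ), MYL9 (the regulatory light chain that MYLK phosphorylates) and ZYX (zyxin) followed with r = 0.987, 0.984, 0.983 and 0.979. The list went on with EHD2, CSRP1, DSTN, VASH2, the locus of ASPN and ECM2, PDLIM7, ENSSSCG00000012699, SYNJ2, GLIS2 and ENSSSCG00000032522, down to r = 0.929. All 15 were highest in control pig 5, as TPM2 with 106 FPKM there against 8.21 to 31.1 in the other 9 pigs. This follows largely from the ranking itself, since control pig 5 was the highest in the pattern used for it. When control pig 5 was left out, 7 of the 15 were again among the first 15, and r with the mean of the 8 genes was at least 0.828 for each of the 15. The 15 were picked by r over the 10 pigs, which include these 9, so this is no independent test.

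Other genes of the contractile system were described from 8 lists of 112 genes, of which 104 were found and 99 loci tested. At an edgeR unadjusted P under 0.05, 6 of these loci were higher and 1 was lower in the rpFSH treatment group, against 1.52% and 3.21% of all tested loci, none had an adjusted p under 0.05, and the median log2 fold change was 0.01. Those higher were OXTR (the oxytocin receptor, log2 fold change 1.93, at a locus with a second gene name), KCNMA1 (the pore of the large-conductance potassium channel, 1.36), HTR2A (a serotonin receptor, 1.18), LPP (0.88), FOXF1 (0.56) and CNN3 (0.50). The one that was lower was ACTA1, the skeletal muscle actin. Its FPKM was 34.9 in control pig 5, from 14122 counts, and at most 0.0236 in the other 9 pigs. The direction of ACTA1 thus came from 1 pig. Without control pig 5, 15 of the 99 loci were higher and 1 was lower at that P, against 2.29% and 2.4% of all tested loci, and the median was 0.23. Loci highest in control pig 5 rise in fold change when it is left out, so these counts depend on which pig was removed.

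KCNMA1, named by its P in these same data, had an FPKM of 1.72, 0.484, 1.41, 1.44 and 6.0 in the control pigs and of 4.42, 3.74, 9.20, 2.86 and 6.22 in the rpFSH pigs. Every rpFSH pig was above control pigs 1 to 4, an arrangement that 0.488% of the tested loci showed. KCNMB1, the accessory subunit of KCNMA1, did not pass the test and had 8.28 FPKM in control pig 5 against 0.548 to 2.33 in the other 9 pigs. ITGA5, an integrin subunit chosen after its values were seen, had the smallest P named here without control pig 5 (log2 fold change 1.02, an unadjusted edgeR P of 1.95e-05 and an adjusted p of 0.296). Its 5 rpFSH values, from 5.04 to 7.21 FPKM, were above those of control pigs 1 to 4, from 2.68 to 3.33, whereas control pig 5 had 9.03. That is the same arrangement as in KCNMA1.

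The partners of the 8 genes did not all share the level of control pig 5. In MYL9, control pig 5 had 56.2 FPKM against 6.08 to 21.6 in the other 9 pigs. SYNM, the synemin partner of desmin filaments, had 53.1 against 4.83 to 15.5. SMTN (smoothelin) had 19.6 against 4.93 to 13.1, and TPM1 36.7 against 8.57 to 28.7. By contrast CALD1 (caldesmon, another thin filament regulator) had 11.8 FPKM in control pig 5, inside the range of 4.76 to 14.9 of the others, and the intermediate filament gene VIM had 125 inside 123 to 207. MYOCD, the coactivator that drives smooth muscle genes through SRF, had 1.36 inside 0.491 to 2.35, whereas SRF had 11.6 above 4.2 to 6.41. Of the cytoplasmic actins, ACTB had 430 above 188 to 278 and ACTG1 338 inside 279 to 448. The dense plaque, dense body and intermediate filament list was highest in control pig 5 in 15 of 22 loci, and its summed FPKM was 1027 there against 328 to 613 in the other 9 pigs. Of 12 loci of the kinase and phosphatase list 5 were highest there, of 15 of calcium and potassium handling 5, and of 12 of transcription control 3. The thin filament list had 5 of 13 loci highest there, the other actins 3 of 4, the myosin chains 3 of 4, and the contractant ligands and receptors 3 of 21. Over all tested loci, 17.4% were highest in control pig 5, a share that the transcription control and contractant lists were near. EDNRA, the endothelin receptor, had 6.23 FPKM in control pig 5 and between 2.95 and 8.10 in the other pigs.

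Some markers of other cell types were high in control pig 5 or control pig 2, the pigs at the extremes of the 8 genes. The oviduct-type and ciliated epithelium list (10 of 11 genes found) had a summed FPKM of 139 in control pig 5 and 68.9 in control pig 2, and between 7.97 and 20.1 in the other 8 pigs. In control pig 5, 8 of its 10 loci were highest, and FOXJ1, the master factor of motile cilia, had 14.1 FPKM there, 5.82 in control pig 2 and at most 0.212 elsewhere. OVGP1, the oviductal glycoprotein, at a locus shared with WDR77, had 63.6 and 20.6 FPKM in these pigs and at most 3.12 elsewhere. MAL2 was highest in control pig 2, with 14.0 FPKM. The luteal list (3 of 4 genes found, STAR, CYP11A1 and PRLR) had a summed FPKM of 2294 in control pig 2, lowest in all 8 genes, and 1236 in rpFSH pig 1, which was the lowest rpFSH pig in 7 of the 8 genes, all but ACTG2, and in the share of counts they took (0.121%). It was 299 in rpFSH pig 4, in which the 8 genes were not low, and between 7.60 and 41.7 in the other pigs. Among these was control pig 4, second lowest in 7 of the 8 genes, with a luteal sum of 8.24. The part of these tissues in the levels of the 8 genes was not tested.

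The summed vessel wall and endothelium markers did not follow the 8 genes. The pericyte and vessel wall list (6 of 7 genes found) had a summed FPKM of 66.6 in control pig 5, inside the range of 52.5 to 155 of the other 9 pigs, with 1 of its 6 loci highest there. The sum rested largely on RGS5, with 117 of 155 FPKM in control pig 2 and 33.5 of 66.6 in control pig 5. PDGFRB, like RGS5 a defining gene of the list, had 9.62 FPKM in control pig 5, lower than in any other pig. The locus that was highest there was CSPG4, named after its values were seen, with 8.40 FPKM against 1.60 to 2.36 in the other 9 pigs. The endothelium list (6 of 6 genes found) had a sum of 64.3 in control pig 5, inside 36.5 to 97.8, and PECAM1 had 12.4 FPKM there against 4.15 to 12.3. The ovarian stroma list (7 of 7 found) had 1040 in control pig 5, inside 201 to 1329, and its lowest sum was in control pig 2. Apart from ACTA1 the skeletal muscle list was near 0, MYL1 was at the floor of the table in all pigs, and the summed cardiac list was at most 0.348 FPKM. In control pig 2, 5 of 5 granulosa loci (summed FPKM 4.83) and 4 of 5 oocyte loci (summed FPKM 3.75) were at their lowest as well. Sums of the granulosa and theca lists in control pig 5, 14.5 and 44.1, were inside those of the other pigs, as were the oocyte sum of 6.15, the immune sum of 37.6 and the nerve and glia sum of 2.75. The adipocyte sum was at most 0.589 FPKM in any pig, and the mesothelium and surface epithelium sum was 3.59 in control pig 5 and at most 1.32 in the others.

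**Figure D4:**
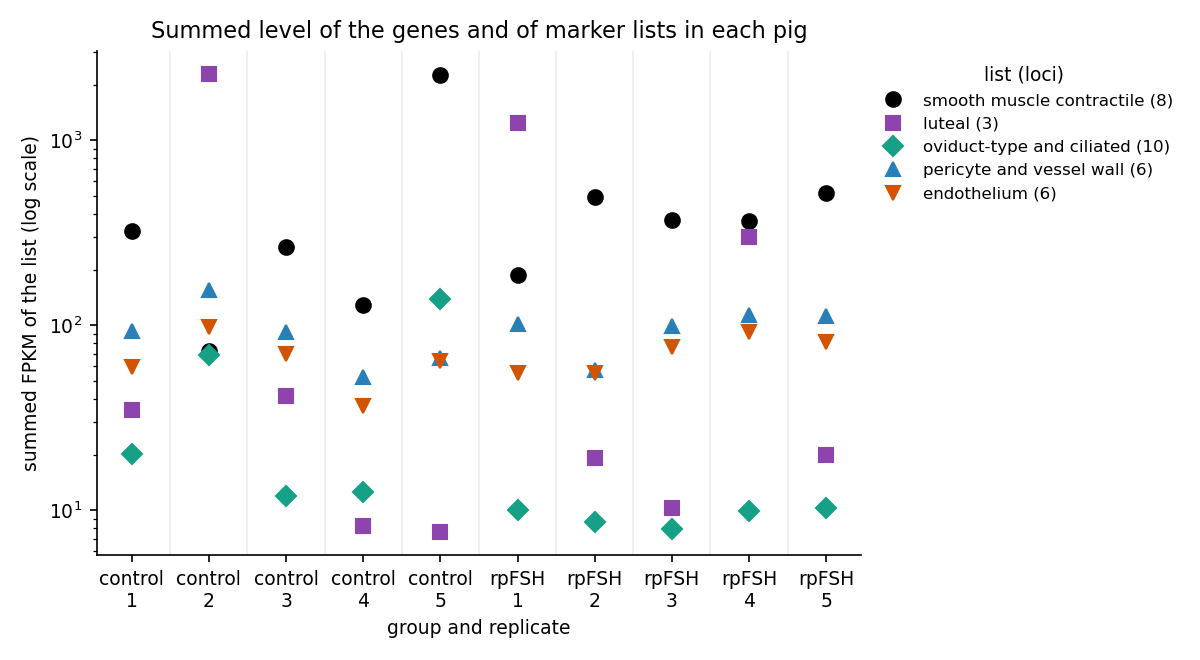
Summed FPKM of the 8 smooth muscle contractile genes and of 4 marker lists in each pig, on a log axis, with the number of loci of each list in parentheses. The sum of the 8 genes is 2263 in control pig 5 and 72.4 in control pig 2, where the luteal sum is 2294, and the vessel wall and endothelium sums stay within one band.

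Loci at and beside the genes were read as well. In the assembly, 13 loci without a gene name lay within 10000 bp of the genes, 11 of them overlapping, and 11 were highest in control pig 5, against 11.4% of all loci of this kind. MYH11 had 4 of them, all on the opposite strand, and MYLK had 5, of which 4 overlapped on the opposite strand. The most abundant was MSTRG.20181 in MYH11, with 13.8 FPKM in control pig 5 and 1.25 to 7.06 in the other 9 pigs. MSTRG.18535, which overlaps CNN1 on the opposite strand, had 4.67 FPKM in control pig 5 and was at the floor in the other 9 pigs. The methods describe the use of dUTP in making the second strand. Whether the counts were made with regard to strand is not given in the sources used here, so reads of a gene may have been counted at a locus on its opposite strand. Among the 20 annotated coding neighbours of the 8 genes, 5 were highest in control pig 5, a count near the share of 17.4% over all tested loci. NDE1, which overlaps MYH11, had 5.74 FPKM there against 1.33 to 5.38, and SHISA4, beside LMOD1, had 4.24 against 0.805 to 2.85. The neighbours of ACTA2 (STAMBPL1 and FAS) were not highest there.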

How the data were processed

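The values deposited by the authors for each of the 10 pigs were FPKM and whole-number counts, by gene locus. According to the methods and the submitters' processing notes, reads were trimmed with Cutadapt, mapped to Sscrofa11.1 with HISAT2 2.0 and a Bowtie program (Bowtie2 in the methods, Bowtie 0.12.2 in the processing notes) and assembled with StringTie 1.3.0, and Ballgown was used for FPKM. How the deposited counts were made is not given in the sources used here. Count and FPKM were in a near-fixed ratio per locus and pig (99th percentile of the log2 deviation 0.00298, loci with at least 200 counts). The methods name rRNA removal and a HiSeq instrument, and the labels poly(A) RNA and a NovaSeq instrument.

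The libraries held 64873797 to 75114003 counts, and the floor of 3 counts was 0.0399 to 0.0462 CPM. This covers counting error only. Protein-coding loci whose FPKM averaged 0.1 or more entered edgeR 4.0.16 (quasi-likelihood test, TMM scaling, two-sided) on the counts, with Benjamini-Hochberg adjustment over 15170 loci. The pseudocount on log2(FPKM + 1) was 1. Alternatives were limma 3.58.1, DESeq2 1.42.0 (an adjusted p of NA was kept as NA), other scalings and filters, and leaving out each pig. Those combining another tool with the loss of control pig 5, and the robust edgeR fit, were chosen after seeing the data. Single genes were compared by exact permutation over pigs, and correlations with 100000 permutations. R 4.3.3, Python 3.11.15, numpy 2.4.6, pandas 2.3.3, scipy 1.17.1 and matplotlib 3.10.9 were used, and the fits were tested on simulated data. The 8 genes, the 23 gene lists (194 genes) and the alternatives were chosen with earlier results of these data known.

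Named are the 8 genes, genes of the related lists with an edgeR P under 0.05, listed partners and markers, the 15 loci most like the 8 genes in pattern, and the most abundant unnamed loci near them. Pigs of 1 group were separate animals. At least 52.7% of loci differed by more than 3 counting SD between any 2 pigs of a group, so no pair agreed within counting noise. Replicate numbers come from the labels. The transcript-level lncRNA values, ovary weights and qRT-PCR values were not used here.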

Additional observations from a re-analysis of the deposited data

Results flagged for a closer look

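Of 20 series of 5 pigs examined for a pig far from the others, 10 passed Dixon's critical value of 0.71 (95% level). Chance gives about 1 series in 20 if the values are normally distributed, which skewed FPKM need not be. The series are not independent, since the 8 genes moved together. The value is the gap between the extreme pig and its nearest neighbour divided by the range of the group. It was taken on FPKM, ratios and shares without logarithms. Every flagged pig was the highest of its group, so its value would be smaller on a log scale. In the control group the extreme pig was control pig 5 each time, with 0.841 for MYH11 (356 FPKM), 0.975 for ACTG2 (406), 0.984 for DES (360), 0.913 for TAGLN (579), 0.941 for CNN1 (95.5) and 0.807 for LMOD1 (28.4). The share of counts taken by the 8 genes (1.33% in control pig 5) gave 0.864, and the ACTG2 to ACTA2 ratio (1.02 in control pig 5) gave 0.941. ACTA2 and MYLK in the control group did not pass.

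In the rpFSH treatment group, rpFSH pig 2 stood apart in ACTG2 (54.4 FPKM, value 0.802) and in the ACTG2 to ACTA2 ratio (0.380, value 0.776). No cause of these values was tested.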

How the results depend on the processing

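Scaling (RLE, upper-quartile factors or library totals alone), the filter on low FPKM, DESeq2 with all pigs and the robust edgeR fit changed no direction and no call. DESeq2 with all pigs gave no P to ACTG2, DES, TAGLN and CNN1, so it could not call these 4 genes. The count of genes with an adjusted p under 0.05 was 0 in every alternative with all 10 pigs, the limma fits and the replicate block included, and the cause of the other signs under those fits was not tested. With limma on log2(FPKM + 1), the log2 fold changes turned to 0.31 (MYH11), 0.36 (ACTG2), 1.00 (DES), 0.35 (ACTA2), 0.53 (TAGLN), 0.33 (CNN1) and 0.035 (LMOD1), and their median to 0.34. With limma on log2(FPKM + 0.1), the log2 fold changes turned to 0.32 (MYH11), 0.56 (ACTG2), 1.25 (DES), 0.36 (ACTA2), 0.55 (TAGLN), 0.49 (CNN1) and 0.083 (LMOD1), and their median to 0.42. With the replicate number as a block in the edgeR fit, the log2 fold changes turned to 0.44 (MYH11), 0.57 (ACTG2), 1.53 (DES), 0.39 (ACTA2), 0.63 (TAGLN), 0.57 (CNN1) and 0.18 (LMOD1), and their median to 0.50. Without control pigs 2 and 5, the log2 fold changes turned to 0.71 (MYH11), 1.44 (ACTG2), 2.37 (DES), 0.48 (ACTA2), 1.06 (TAGLN), 1.23 (CNN1), 0.068 (MYLK) and 0.40 (LMOD1), and their median to 0.89. Under that last setting 1 gene met the study's rule, against 1.85% of the tested loci. Without control pig 5, limma gave 0.91 (MYH11), 1.58 (ACTG2), 2.28 (DES), 0.86 (ACTA2), 1.34 (TAGLN), 1.22 (CNN1), 0.30 (MYLK) and 0.52 (LMOD1), with a median of 1.07, and 4 genes met the study's rule. Without control pig 5, DESeq2 gave 0.96 (MYH11), 1.79 (ACTG2), 2.66 (DES), 0.76 (ACTA2), 1.32 (TAGLN), 1.5 (CNN1), 0.28 (MYLK) and 0.63 (LMOD1), with a median of 1.14. In that DESeq2 fit 4 met the rule and 1 had an adjusted p under 0.05, which 0.25% of the tested loci had. Without control pig 5, edgeR on library totals alone gave 0.92 (MYH11), 1.72 (ACTG2), 2.61 (DES), 0.72 (ACTA2), 1.28 (TAGLN), 1.46 (CNN1), 0.24 (MYLK) and 0.60 (LMOD1), with a median of 1.10, and 3 met the rule. For limma, DESeq2 and library totals without control pig 5, the share of all tested loci that met the rule is not given here. With each pig in turn left out, the edgeR log2 fold changes ranged from -0.47 to 0.94 for MYH11, from -2.63 to 1.79 for ACTG2, from -1.94 to 2.65 for DES, from -0.31 to 0.75 for ACTA2, from -0.85 to 1.31 for TAGLN, from -1.29 to 1.49 for CNN1, from -0.82 to 0.26 for MYLK and from -0.56 to 0.62 for LMOD1, their median from -0.83 to 1.13, the genes meeting the rule from 0 to 4, and those with an exact permutation p under 0.05 from 0 to 2. In each of these the highest value came without control pig 5. The differences in log2(FPKM + 1) ranged from -0.10 to 0.91 for MYH11, from -0.36 to 1.58 for ACTG2, from 0.45 to 2.28 for DES, from -0.10 to 0.86 for ACTA2, from 0.06 to 1.34 for TAGLN, from -0.11 to 1.22 for CNN1, from -0.46 to 0.30 for MYLK and from -0.28 to 0.52 for LMOD1, and that of the log2 ACTG2 to ACTA2 ratio from -0.20 to 1.02. Same-numbered pigs had r between -0.41 and 0.11 in their deviations from the group means, with 1 of 5 pairs over 0.1 and 0 of 5 controls closest to their own number, so the pigs of the groups share only a number, and the block called 0 of the 8 genes. With 5 pigs per group and this spread between controls, differences larger than their own standard error, as those of ACTG2, DES and MYLK with all pigs, did not pass the test.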
